A study of Mus musculus with 9 samples.

Results

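Reactive cultures, grown in a dish from stab-wound lesions of mouse cortex, were compared with cells sorted directly from injured cortex, over all genes with enough counts. The comparison rests on 6 of the 9 RNA sequencing libraries of the study, 3 a side, and on 18093 of the 56748 genes in the count table. All groups came from wild-type C57BL/6J mice aged 2 to 3 months, and the injury was a grid of wounds made with a surgical lancet. Injured cortex libraries held cells dissociated from the lesion and sorted by flow cytometry, which left out debris, dead cells and the neuronal fraction, positive for CD171 and negative for ACSA-2. Uninjured cortex went through the same sort without a wound, and its 3 libraries entered the model to share the estimate of spread and are given here as background. Reactive cultures were made from the dissected lesion core in DMEM/F12 medium with B27 and 10% fetal bovine serum, and each whole dish was collected unsorted. The labels mark the cultures as positive for both CD171 and ACSA-2, and the genes of these antigens, L1cam and Atp1b2, are given with the neuronal and astrocyte results. Sample labels give dissection at 1 day after injury and 6 days in culture. In the series' design text, injured cortex was taken at 3 days, and lesions for culture at 24 h before 8 days in vitro. Culture, serum, time since injury and the missing sort all separate the 2 groups in the same way, so their effects cannot be told apart. The replicates are called biological in the series' design text, and no source used here says which mice or dishes they came from.

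A stab wound tears vessels and opens the blood-brain barrier. Microglia, the resident macrophages of the brain, leave their resting state and clear debris, astrocytes thicken and raise intermediate filaments such as GFAP, and neutrophils, monocytes and lymphocytes enter from the blood. Fibroblasts and mural cells of the vessel wall proliferate and lay down collagen, and cells that gain smooth muscle actin and tensile fibres are known as myofibroblasts. On stiff plastic and in serum, many cell types take on these contractile and matrix genes, while resting microglia in culture are known to lose the genes that mark them in the brain.

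Total counts were 16667883 to 24302770 in the cultures and 20389561 to 21135163 in injured cortex. The 100 most abundant genes took 44.5% to 45.9% of the counts in the cultures and 23.6% to 33.0% in injured cortex. Across genes, Pearson's r of log2 levels was 0.979 to 0.984 among the cultures, 0.939 to 0.974 among the injured libraries and 0.793 to 0.845 between the groups. Injured replicate 3 stood apart from its group, with 75 genes at least 3-fold above and 122 at least 3-fold below both other injured libraries, of 8945 genes with a mean of 10 CPM or more. Among the cultures, replicate 1 stood apart most, with 16 genes above and 3 below both others, of 8423. Gfap, the astrocyte filament gene that injury raises, served to check the injury label and stood at 310.5, 275 and 318 CPM in injured cortex and 8.78 to 19.9 CPM in uninjured cortex. Single genes are given as CPM, counts scaled to a common library size, with library sizes adjusted by TMM factors, which weigh libraries by a trimmed mean over genes. Sums over a list of genes are CPM of the library total.

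Of the 18093 genes, 9057 (50.1%) differed between cultures and injured cortex in edgeR's quasi-likelihood test at a Benjamini-Hochberg adjusted p under 0.05. The cultures were higher for 3613 genes (20.0% of those tested) and lower for 5444 (30.1%). These 2 shares are the background for all counts of list members below. A difference of more than 2-fold was called for 4626 genes (25.6%), 1264 higher (6.99%) and 3362 lower (18.6%). The values of the 2 groups did not overlap for 10793 genes (59.7%), 4677 of them higher in the cultures (25.8%) and 6116 lower (33.8%). The median log2 fold change over all genes was -0.19, with quartiles at -1.61 and 0.58. Higher genes made up 39.9% of the calls with TMM factors and 17.4% (1649 higher, 7851 lower) with library totals alone. That alternative was added once the data had been seen, and it moved the median gene by -0.58. In bulk libraries, fewer cells of a type and less RNA per cell cannot be told apart.

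**Figure D1:**
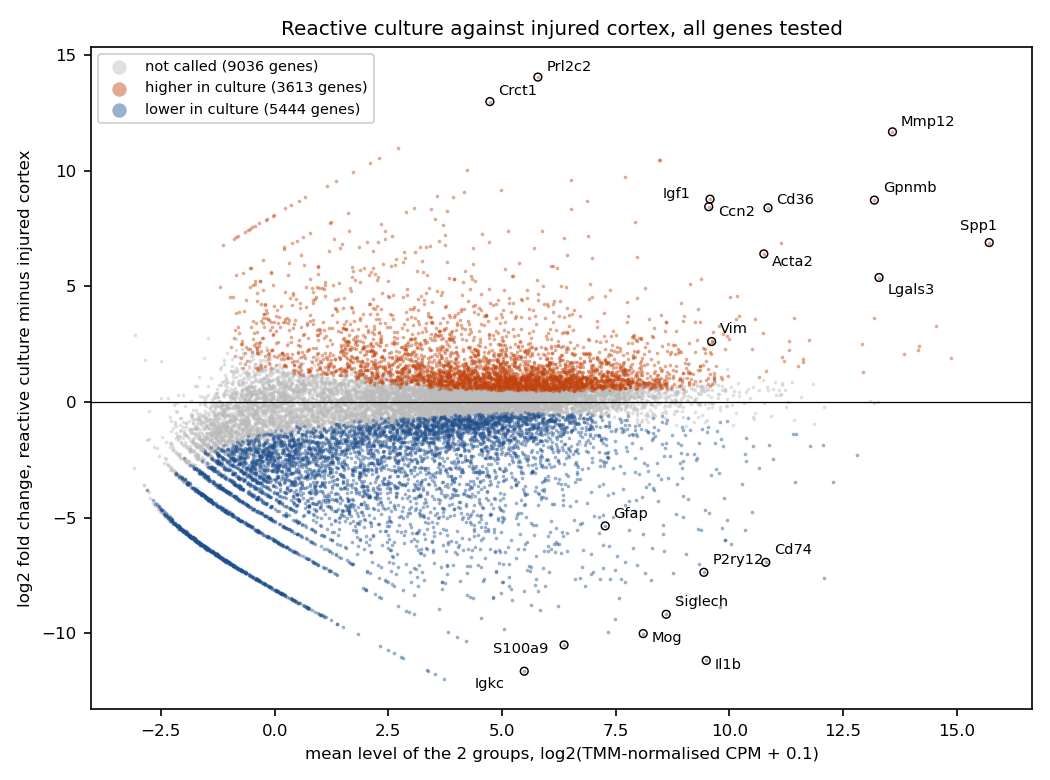
Log2 fold change of reactive culture minus injured cortex (vertical axis) against the mean level of both groups as log2(TMM-normalised CPM + 0.1) (horizontal axis), 1 point for each of the 18093 genes tested. Orange-red points are the 3613 genes called higher in culture, blue points the 5444 called lower and grey points the rest; Mmp12, Gpnmb and Spp1 lie at the upper right, and Mog, Il1b and Igkc at the lower edge.

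Among the 10 largest increases with no overlap between groups, counting genes that averaged 10 CPM or more, were those of Prl2c2, Crct1, Mmp12, Atp6v0d2, Prl2c3, Mmp13, Actg2, Vgll3 and Mmp10, and the log2 fold changes of those with counts in both groups were 9.09 to 11.68. Mmp12 encodes the macrophage metalloelastase and stood at 25240, 26120 and 22530 CPM in the cultures against 6.51, 12.1 and 3.95 CPM in injured cortex. Atp6v0d2 encodes a subunit of the vacuolar proton pump found in macrophages and osteoclasts, and stood at 526, 691 and 895 CPM against 0.189, 0.995 and 0.340 CPM. Neither gene overlapped between groups, and the log2 fold changes were 11.68 ± 0.67 (SE; adjusted p = 1.27e-07 in edgeR's quasi-likelihood test) and 10.48 ± 0.56 (adjusted p = 9.79e-08). Mmp13 and Mmp10, a collagenase and a stromelysin, were at 324 to 502 CPM and 31.4 to 42.5 CPM in the cultures and at no more than 0.785 and 0.157 CPM in injured cortex. Vgll3, a cofactor of TEAD transcription factors, was at 59.3 to 67.8 CPM against at most 0.262 CPM. Leaving out single libraries moved several of these values by more than 1.5 times without ending a call: Atp6v0d2 was at 11.31 and Vgll3 at 10.43 without injured replicate 2, and Mmp10 at 10.40 and 8.39 without injured replicates 2 and 3.

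Some genes had no count at all in one of the 2 groups. With a mean of at least 5 CPM in the other group, 5 genes were at 0 in the 3 injured libraries and 13 at 0 in the 3 cultures. With 3 counts in all libraries of a group as the floor and levels as CPM of the library total, Prl2c2, a proliferin of the prolactin family, was at least 1770-fold higher in the cultures (at least 691-fold without culture replicate 1), and Crct1, a gene of the cornified envelope cluster, at least 816-fold. Prl2c2 varied widely among the dishes, at 244, 51.6 and 36.2 CPM, and its relative Prl2c3 at 77.7, 15.9 and 17.9 CPM, while Crct1 stood at 36.7, 64.8 and 57.5 CPM. Reads of the Prl2c genes may be split between near-identical copies, so the level of each single copy is uncertain. The log2 fold change of Prl2c3 was 10.03, with 8.90 and 9.37 without culture replicate 1 and injured replicate 3. The serotonin receptor gene Htr1b was at least 198-fold higher in the cultures, Lipn at least 149-fold and Gm32255 at least 130-fold. In the other direction, Neu4, a sialidase of the oligodendrocyte lineage, was at least 682-fold lower in the cultures (at least 340-fold without injured replicate 3), the granzyme gene Gzma at least 498-fold, the lipid transporter gene Abca8a at least 497-fold and Jchain, the joining chain of secreted antibodies, at least 445-fold. Kmo, which encodes an enzyme of tryptophan breakdown, and Ly6a2, a member of a family with near-identical copies, were at least 300-fold and 298-fold lower, and at least 191-fold and 153-fold without injured replicate 1.

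Several genes known from macrophages were abundant in the cultures, and which cells made them was not tested. Of 20 tested genes of lesion and disease-associated microglia, a state first described around plaques, 15 were higher in the cultures and 1 was lower. Among all genes 20.0% were higher and 30.1% lower. The median log2 fold change of the list was 1.97. Spp1, the secreted phosphoprotein osteopontin, stood at 97030, 117800 and 105700 CPM in the cultures and at 627, 1748 and 318 CPM in injured cortex. The lowest culture was far above the highest injured library, and Spp1 alone took 7.27% to 8.43% of all culture counts. Its log2 fold change was 6.89 ± 0.76 (adjusted p = 1.81e-05 in edgeR's quasi-likelihood test) and 7.83 without injured replicate 2. Gpnmb, a lysosomal glycoprotein of lipid-laden macrophages, stood at 22610, 15740 and 17590 CPM against 43.3, 69.0 and 19.6 CPM, again without overlap (8.73 ± 0.62, adjusted p = 5.58e-07). Igf1, an insulin-like growth factor, was at 1399, 1610 and 1467 CPM in the cultures and at 1.37, 5.76 and 5.65 CPM in injured cortex (8.45 ± 0.61, adjusted p = 6.30e-07). The lipase gene Lpl (6.86, and 7.46 without injured replicate 2), the galectin gene Lgals3 (5.38) and the lysozyme gene Lyz2 (3.27) were higher as well. The list as a whole summed to 212300, 207000 and 204600 CPM in the cultures, to 24590 to 39680 CPM in injured cortex and to 19620 to 19760 CPM in uninjured cortex. Cst7, a cysteine protease inhibitor counted among the same genes, went the other way, at 2.58, 6.56 and 6.89 CPM against 80.9, 93.4 and 29.3 CPM (-3.67 ± 0.47, adjusted p = 6.07e-05). Trem2, a lipid receptor linked to this state, was not called (726 to 929 CPM against 517 to 1053 CPM, log2 fold change 0.21), nor was its adaptor Tyrobp (0.57).

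Genes of resting microglia were lower in the cultures for 15 of 16 tested and higher for 0, with a median of -4.33. P2ry12, the purinergic receptor that steers microglial processes, stood at 8.60, 11.7 and 4.62 CPM in the cultures and at 1063, 2480 and 598 CPM in injured cortex. All cultures lay below all injured libraries, and the log2 fold change was -7.37 ± 0.65 (adjusted p = 3.26e-06 in edgeR's quasi-likelihood test; -6.63 without injured replicate 2). Siglech, a sialic acid-binding lectin, was at 0.614 to 1.84 CPM against 544 to 1021 CPM (-9.18). The fructose transporter gene Slc2a5 was at 0.156 to 0.430 CPM against 95.0 to 240 CPM (-8.84), and the membrane protein gene Tmem119 at 29.3 to 33.4 CPM against 496 to 1591 CPM (-4.97). The fractalkine receptor gene Cx3cr1 was at 70.4, 49.1 and 16.8 CPM in the cultures (-3.70), and the calcium-binding Aif1, known as IBA1, at 55.3 to 95.7 CPM against 606 to 1071 CPM (-3.56). Csf1r, the receptor for the survival factor CSF1, was at 510, 335 and 313 CPM against 1329, 1953 and 1110 CPM (-1.92), a smaller difference in log2 terms. The list summed to 3035 to 3837 CPM in the cultures and to 15250 to 25450 CPM in injured cortex, and 40.5% to 49.5% of the culture sum was Sparc, a matrix-binding protein that other cells also make.

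**Figure D2:**
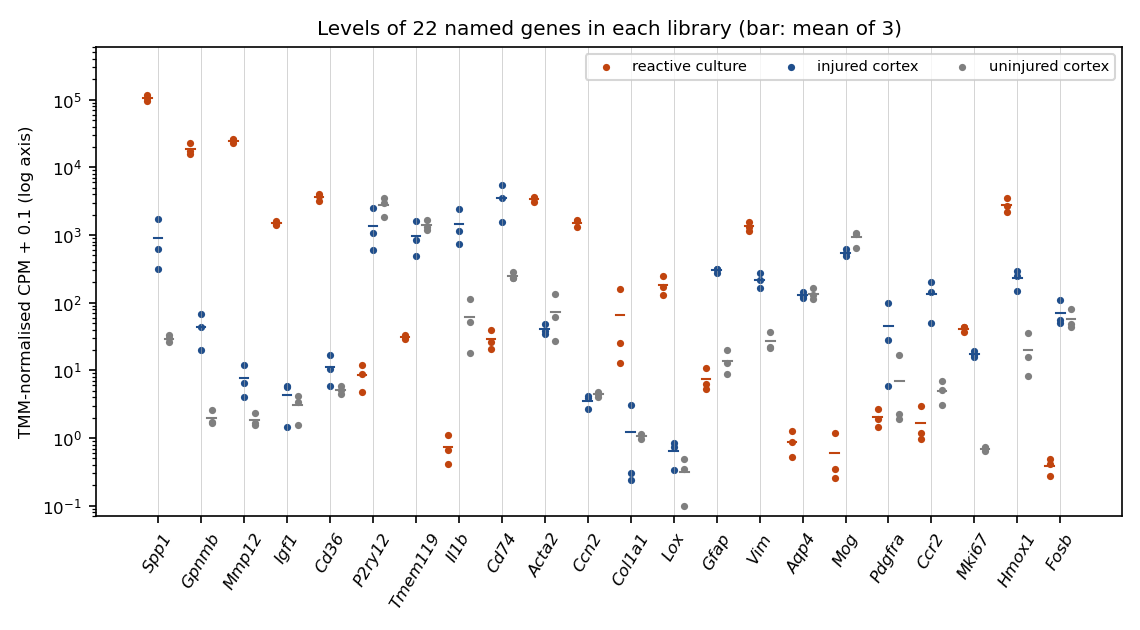
TMM-normalised CPM + 0.1 on a log axis for 22 named genes (horizontal axis) in the 3 reactive cultures (orange-red), 3 injured cortices (blue) and 3 uninjured cortices (grey), with a bar at the mean of each 3. Spp1, Gpnmb, Mmp12, Igf1 and Cd36, known from macrophages, were higher in every culture than in any cortex library shown. So were the contractile and matrix genes Acta2, Ccn2 and Lox, while P2ry12, Tmem119, Aqp4 and Mog were lower. The cells of origin were not tested.

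Border macrophages live along vessels and in the meninges. Of their 15 tested genes 6 were higher in the cultures and 5 lower, with a median log2 fold change of 0.33 that became -0.24 with library totals alone. Among all genes 20.0% were higher and 30.1% lower, so the share of lower members was near the background. Pf4, the chemokine platelet factor 4, stood at 375, 214 and 267 CPM in the cultures and 12.6, 28.2 and 18.3 CPM in injured cortex (3.86), and the mannose receptor gene Mrc1 at 38.8 to 46.1 CPM against 3.59 to 13.8 CPM (2.39, and 3.09 without injured replicate 3). The lectin genes Clec10a (-3.96) and Mgl2 (-4.74, and -4.14 or -5.33 without culture replicate 1 or 2) were lower, as was Cd209f, at 0 in the 3 cultures and at 0.897 to 1.63 CPM in injured cortex. Timd4, a receptor for phosphatidylserine, was at 0 in 2 cultures and 0.123 CPM in the other, against 17.7, 5.66 and 1.53 CPM. The log2 fold change was -7.39, and -6.19 without injured replicate 1. Without culture replicate 1 no Timd4 count remained in the cultures, and the size of the fitted -10.34 depends on a small added count. Cbr2 was called lower (-0.93, adjusted p = 0.0218 in edgeR's quasi-likelihood test) but lost the call without culture replicate 1, culture replicate 3 or injured replicate 2 (adjusted p from 0.0568 to 0.109).

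Osteoclasts and fused macrophages share an acid-secreting set of genes. Of 12 tested, 6 were higher in the cultures and 2 lower, and 2 were called higher by more than 2-fold. The higher count was 4 without culture replicate 3, and with library totals alone 4 were higher and 3 lower. Besides Atp6v0d2, the collagen-cleaving cathepsin gene Ctsk stood at 103, 155 and 203 CPM against 10.99, 14.97 and 9.80 CPM (3.69), and Acp5, tartrate-resistant acid phosphatase, at 136 to 217 CPM against 12.97 to 74.2 CPM (1.79). The fusion gene Dcstamp was at 3.32, 5.52 and 10.96 CPM against 1.26 to 2.46 CPM (1.77), while Ocstamp, its partner in fusion, overlapped between groups at 1.23, 4.54 and 12.3 CPM against 9.34, 6.70 and 1.50 CPM. Nfatc1, the transcription factor that drives osteoclast formation, was not called (18.7 to 30.8 CPM against 29.6 to 38.3 CPM, adjusted p = 0.0566). Carbonic anhydrase gene Car2, which oligodendrocytes also make, was lower at 22.6 to 41.4 CPM against 1185 to 2605 CPM (-5.98), and so was the gelatinase gene Mmp9 of osteoclasts and neutrophils (-3.97).

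Phagocytic receptors and lysosomal enzymes were higher for 9 of 19 tested genes and lower for 2, with a median of 0.76. The fatty acid scavenger receptor gene Cd36 stood at 4097, 3714 and 3232 CPM in the cultures and at 10.4, 16.7 and 5.79 CPM in injured cortex. The groups were far apart, with a log2 fold change of 8.40 ± 0.48 (adjusted p = 1.27e-07 in edgeR's quasi-likelihood test). The scavenger receptor genes Msr1 (1503 to 2446 CPM against 23.8 to 148 CPM, 4.55) and Marco (13.7 to 43.4 CPM against 0.0944 to 0.238 CPM, 6.97) were higher too, with Msr1 at 5.25 without injured replicate 2 and Marco at 6.24 without culture replicate 3. The proton pump subunit gene Atp6v1a (2.11) and the cathepsin genes Ctsb (2.41), Ctsd (2.07) and Ctsl (2.51) were higher, whereas cathepsin S, from Ctss, was at 8387 to 9713 CPM against 4342 to 12460 CPM (0.05). Mertk, a receptor for dying cells, was called lower (-0.73, adjusted p = 0.0275 in edgeR's quasi-likelihood test) although its groups overlapped. It lost the call without culture replicate 2, culture replicate 3 or injured replicate 3 (adjusted p from 0.0939 to 0.12).

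**Figure D3:**
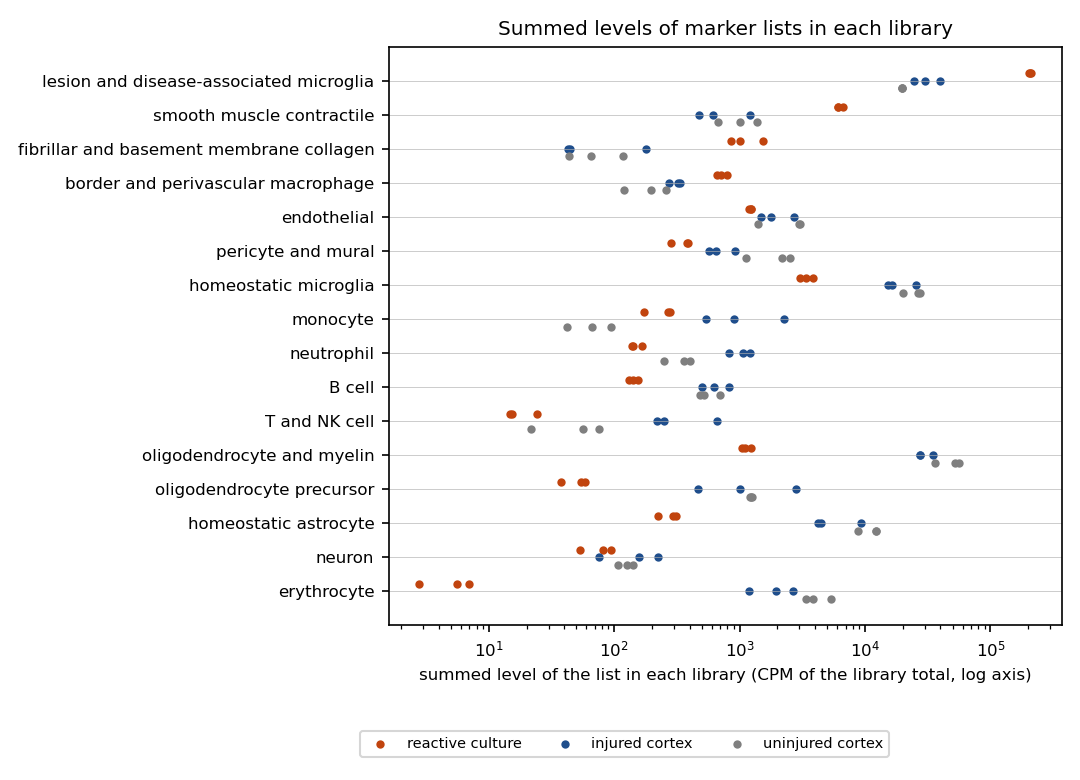
Summed level of each of 16 lists of cell type markers in every library, as CPM of the library total on a log axis, for reactive cultures (orange-red), injured cortex (blue) and uninjured cortex (grey). The lesion microglia, contractile, collagen and border macrophage sums of the 3 cultures lie above those of all injured libraries, and the erythrocyte, oligodendrocyte, astrocyte and leukocyte sums lie below them.

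Contractile genes of smooth muscle were higher for 18 of 20 tested and lower for 0, with a median log2 fold change of 3.57 against -0.19 for all genes. Acta2, smooth muscle actin, stood at 3501, 3656 and 3118 CPM in the cultures and at 34.7, 48.4 and 38.1 CPM in injured cortex, with 26.6 to 133 CPM in uninjured cortex. The 3 cultures agreed within a narrow range far above every cortex library (6.41 ± 0.57, adjusted p = 3.23e-06 in edgeR's quasi-likelihood test). Cnn1, the actin-binding calponin, was at 219, 255 and 221 CPM against 0.472, 0.576 and 0.613 CPM (8.69 ± 0.60, adjusted p = 4.38e-07). Actg2, an actin of visceral muscle, was at 249, 176 and 122 CPM against 0.105 to 0.330 CPM (9.60 ± 0.65, adjusted p = 3.64e-07). The tropomyosin gene Tpm1 (4.01), the myosin light chain gene Myl9 (3.46), the intermediate filament gene Des (4.97) and the smooth muscle myosin gene Myh11 (3.67) followed. Tagln, transgelin, was called (5.90) at only 3.13 to 4.197 CPM in the cultures. In the GRCm38 annotation 67.9% of its exon bases overlap genes on the opposite strand. The strand setting of the counting is not given in the sources used here, so the level of Tagln is uncertain. Without injured replicate 3 no Tagln count remained in injured cortex, and the size of the fitted 9.02 depends on a small added count. These genes summed to 6095 to 6654 CPM in the cultures and 472 to 1204 CPM in injured cortex. The 2 genes not called were Csrp1 (-1.81, adjusted p = 0.073) and Synpo2 (0.14).

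Serum response factor binds the CArG box in promoters of contractile genes. The RefSeq promoter table (GRCm38.p6, from 250 bases before to 50 bases after each start) held 16 of the 20 contractile genes, and 4 of the 16 (25%) had a CArG box on either strand, against 1.81% of 27025 genes. These were Cnn2, Myl9, Srf and Vcl. Because the list was chosen as contractile genes, the share describes the list and not the difference between cultures and injured cortex. The promoter of Acta2, the most familiar of these genes, had no match in this window, which says only that the exact letters are not there. It is shown with that of Myl9, picked after the matches were seen, whose match begins 161 bases before the start. The Acta2 window is chr19:34255324-34255623 on the minus strand and the Myl9 window chr2:156775214-156775513 on the plus strand, both printed 5′ to 3′ with the match in capitals.
Acta2: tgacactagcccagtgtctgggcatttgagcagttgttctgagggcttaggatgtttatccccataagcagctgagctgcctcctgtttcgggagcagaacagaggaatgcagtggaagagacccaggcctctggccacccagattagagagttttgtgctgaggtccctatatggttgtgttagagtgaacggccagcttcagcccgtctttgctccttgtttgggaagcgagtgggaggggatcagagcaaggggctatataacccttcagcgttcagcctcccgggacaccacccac
Myl9: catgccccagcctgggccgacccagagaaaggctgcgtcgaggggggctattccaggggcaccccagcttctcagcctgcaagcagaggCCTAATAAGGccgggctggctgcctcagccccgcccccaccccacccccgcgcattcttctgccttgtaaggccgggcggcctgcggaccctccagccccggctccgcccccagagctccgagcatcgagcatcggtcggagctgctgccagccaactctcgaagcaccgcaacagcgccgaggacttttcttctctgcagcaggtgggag

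Collagens and the enzymes that modify them were higher for 18 of 22 tested genes and lower for 1, with a median of 4.46 (3.80 without culture replicate 1 and 5.05 without injured replicate 3). Lox, the lysyl oxidase that crosslinks collagen, stood at 249, 168 and 129 CPM in the cultures and at 0.236, 0.628 and 0.749 CPM in injured cortex. All cultures lay above all injured libraries (8.35 ± 0.55, adjusted p = 3.10e-07 in edgeR's quasi-likelihood test). Col8a1, a short-chain collagen of vessel walls, was at 131, 113 and 104 CPM against 0.566, 0.366 and 1.05 CPM (7.38), and the fibril-starting Col5a1 at 119, 93.6 and 97.1 CPM against 1.70, 0.366 and 0.987 CPM (6.64). The prolyl hydroxylase gene P4ha2 was at 107 to 129 CPM against 2.45 to 4.87 CPM (5.01). The major fibrillar chains varied most among the dishes: Col1a1 was at 159, 12.7 and 25.4 CPM in the cultures and 0.142, 0.209 and 2.99 CPM in injured cortex, and Col3a1 at 209, 85.7 and 106 CPM against 0.566, 0.681 and 5.28 CPM. The log2 fold change of Col1a1 was 5.77, 4.03 without culture replicate 1 and 8.52 without injured replicate 3, and that of Col3a1 was 5.87, or 7.74 without injured replicate 3. Col15a1, a collagen of vascular basement membranes, was lower at 0.704 to 1.10 CPM against 2.69 to 4.29 CPM (-1.98).

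Matrix glycoproteins and proteases were higher for 19 of 24 tested genes and lower for 2. Bgn, the proteoglycan biglycan, stood at 501, 471 and 503 CPM against 6.04, 5.81 and 7.25 CPM, a narrow range in both groups (6.27 ± 0.33, adjusted p = 8.41e-08 in edgeR's quasi-likelihood test). Mmp3, a stromelysin, was at 39.6 to 52.1 CPM against 0.136 to 0.471 CPM (7.26), and tenascin C, from Tnc, at 214, 106 and 139 CPM against 3.26 to 6.98 CPM (5.01). Fibronectin gene Fn1 was at 306, 180 and 236 CPM against 68.5, 59.1 and 76.4 CPM (1.82). Timp1, which blocks metalloproteinases, was at 395 to 452 CPM against 38.7 to 93.8 CPM (2.88). The proteoglycan gene Vcan of oligodendrocyte precursors was lower (-2.93, and -2.04 without injured replicate 3). Plat, tissue plasminogen activator, was also lower (-1.11, adjusted p = 0.0172), but not called without culture replicate 3 or injured replicate 2 (adjusted p from 0.078 to 0.0813).

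Fibroblast markers of the meninges and vessels were higher for 10 of 18 tested and lower for 1. Mgp, matrix Gla protein, stood at 422, 394 and 419 CPM in the cultures and 25.4, 18.0 and 17.7 CPM in injured cortex (4.34), and periostin, from Postn, at 34.1 to 43.5 CPM against 1.97 to 2.57 CPM (4.14). The defining fibroblast genes Dcn and Lum differed less, at 41.2 to 64.1 against 21.4 to 33.5 CPM for Dcn (0.78) and 9.63 to 14.6 against 3.00 to 5.76 CPM for Lum (1.46). Pdgfra, a growth factor receptor of fibroblasts and oligodendrocyte precursors, was lower at 2.58, 1.38 and 1.80 CPM against 28.5, 5.71 and 101 CPM (-4.55, and -3.14 without injured replicate 3). Spp1 is also in this list and made up 98.9% to 99.4% of its culture sum. Without Spp1 the list summed to 501 to 796 CPM in the cultures and 84.9 to 285 CPM in injured cortex.

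**Figure D4:**
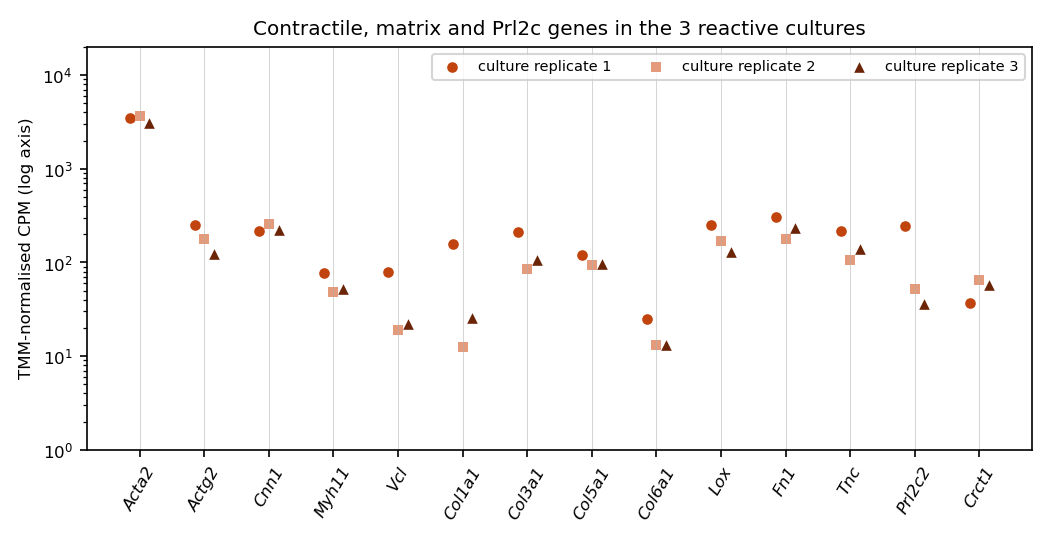
TMM-normalised CPM on a log axis for 14 contractile, matrix and culture-restricted genes (horizontal axis) in culture replicates 1 (circles), 2 (squares) and 3 (triangles). Acta2 and Cnn1 were nearly level over the 3 dishes, whereas Col1a1 (159, 12.7 and 25.4 CPM), Prl2c2 (244, 51.6 and 36.2 CPM) and Vcl (79.4, 19.1 and 21.9 CPM) were highest in replicate 1.

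YAP and its partner TEAD, which respond to stiffness and cell spreading, and TGF-beta share many targets. Of 20 such genes 14 were higher in the cultures and 2 lower, with a median of 2.09. Ccn2, connective tissue growth factor, stood at 1648, 1588 and 1332 CPM in the cultures against 4.01, 2.62 and 3.78 CPM in injured cortex and 3.92 to 4.70 CPM in uninjured cortex. The cultures formed a tight group well away from both kinds of cortex (8.77 ± 0.34, adjusted p = 4.10e-08 in edgeR's quasi-likelihood test), although 23.2% of the exon bases of Ccn2 overlap another annotated gene. Ankrd1, a muscle ankyrin protein, was at 16.5, 25.5 and 21.9 CPM against 0 to 0.157 CPM (8.34, 9.66 without injured replicate 2 and 7.64 without injured replicate 3), and Ccn1, a sister of Ccn2, at 823 to 1004 CPM against 73.0 to 95.0 CPM (3.52). The follistatin-like gene Fstl1 (4.52) and the focal adhesion gene Tgfb1i1 (3.65) were higher. The lower genes were Tgfbi, a TGF-beta-induced matrix protein that monocytes also make, at 43.0 to 56.5 CPM against 142 to 450 CPM (-2.43), and Skil, a repressor of SMAD signalling (-1.57).

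The letters GGAATG, bound by TEAD factors, were searched on both strands of the same promoter windows. Of 13 YAP and TGF-beta targets in the table, 8 (61.5%) held them, against 16.6% of 27025 genes. The list was chosen as targets of these pathways, so this share says nothing about cultures against injured cortex. The promoters of Ankrd1 (chr19:36119795-36120094, minus strand, matches beginning 210 and 123 bases before the start) and Ccn1 (chr3:145649936-145650235, minus strand, 103 bases before the start) are shown as examples picked after the matches were seen, with the matches in capitals.
Ankrd1: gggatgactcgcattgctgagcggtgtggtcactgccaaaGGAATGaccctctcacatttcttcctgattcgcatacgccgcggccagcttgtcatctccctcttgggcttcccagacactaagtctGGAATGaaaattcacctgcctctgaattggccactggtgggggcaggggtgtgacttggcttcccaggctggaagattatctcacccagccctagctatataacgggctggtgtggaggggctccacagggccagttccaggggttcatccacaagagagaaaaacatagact
Ccn1: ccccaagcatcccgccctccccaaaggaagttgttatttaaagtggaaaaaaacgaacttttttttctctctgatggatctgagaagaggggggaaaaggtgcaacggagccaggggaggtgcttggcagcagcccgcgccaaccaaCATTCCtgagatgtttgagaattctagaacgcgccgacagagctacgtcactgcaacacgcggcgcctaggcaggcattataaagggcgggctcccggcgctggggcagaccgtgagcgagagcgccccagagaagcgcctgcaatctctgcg

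Genes of mesenchymal transition, in which cells loosen contacts and move, were higher for 8 of 15 tested and lower for 3, or for 1 without culture replicate 2 or 3. The transcription factor gene Snai2 stood at 19.1, 16.7 and 9.94 CPM against 1.13, 1.47 and 0.272 CPM (4.03), and the collagen-binding integrin gene Itga11 at 1.96 to 5.77 CPM against at most 0.105 CPM (5.55). Lgals1 (1352 to 1462 CPM against 142 to 210 CPM, 3.03) and S100a6 (741 to 896 CPM against 145 to 239 CPM, 2.17) were higher. The transcription factor genes Zeb1 (-1.15) and Zeb2 (-0.64) were lower, as was the epithelial cadherin gene Cdh1 (-2.42, and -1.83 without injured replicate 1). Zeb2 lost its call without culture replicate 2 or 3 (adjusted p from 0.069 to 0.0914 in edgeR's quasi-likelihood test), and Cdh1 without culture replicate 2, culture replicate 3 or injured replicate 1 (adjusted p from 0.0505 to 0.0957). The list median of 1.30 was 2.44 and 1.91 without injured replicates 1 and 3.

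Astrocyte genes for water, potassium and glutamate handling were lower in the cultures for all 20 tested, with a median of -4.76 (-3.999 without injured replicate 3). Aqp4, the water channel of astrocyte endfeet, stood at 0.430, 1.15 and 0.783 CPM in the cultures and at 125, 119 and 146 CPM in injured cortex. All injured libraries lay near the uninjured range of 115 to 163 CPM, and the cultures lay far below (-7.34 ± 0.34, adjusted p = 6.93e-08 in edgeR's quasi-likelihood test). Gjb6, a gap junction connexin, was at 0.518 to 1.10 CPM against 80.5 to 112 CPM (-7.13). The neurotensin receptor gene Ntsr2 was at 1.97 to 3.44 CPM against 202 to 313 CPM (-6.58), and the adhesion gene Hepacam at 0.748 to 1.49 CPM against 69.1 to 99.0 CPM (-6.34). The folate enzyme gene Aldh1l1 was at 2.27, 3.45 and 4.54 CPM against 49.1, 50.9 and 83.0 CPM (-4.16), and the glutamate transporter gene Slc1a2 at 13.9, 28.8 and 45.9 CPM against 333, 274 and 931 CPM (-4.12, and -3.36 without injured replicate 3). Atp1b2, which encodes the ACSA-2 antigen, was at 5.92 to 8.78 CPM against 63.5 to 181 CPM (-3.92, and -3.25 without injured replicate 3). Astrocyte genes summed to 222 to 311 CPM in the cultures, with Glul, glutamine synthetase, at 44.5% to 56% of that sum, and to 4203, 4471 and 9253 CPM in injured replicates 1, 2 and 3.

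Reactive astrocyte genes split. Of 24 tested, 12 were higher in the cultures and 10 lower, with a median log2 fold change of 0.40 that was -0.20 with library totals alone. Gfap itself stood at 5.28, 6.10 and 10.7 CPM in the cultures and at 310.5, 275 and 318 CPM in injured cortex, so that the cultures lay below every injured library and near the uninjured range of 8.78 to 19.9 CPM (-5.36 ± 0.37, adjusted p = 4.66e-07 in edgeR's quasi-likelihood test). Vim, the other intermediate filament of reactive astrocytes and one that most cultured cells carry, was at 1296, 1163 and 1573 CPM against 278, 164 and 217 CPM (2.61 ± 0.31, adjusted p = 3.60e-05). Serpina3n, a secreted protease inhibitor, was at 2.82 to 3.69 CPM against 215 to 664 CPM (-6.91), and the iron carrier gene Lcn2 at 0.860 to 2.50 CPM against 66.4 to 314 CPM (-6.54, and -5.52 without injured replicate 1). The transglutaminase gene Tgm1 (-6.25), the complement gene C3 (-3.68, with -4.68 and -3.06 without culture replicate 3 and injured replicate 1) and the granule proteoglycan gene Srgn (-2.54) were lower. Serping1, the inhibitor of complement C1, was higher at 143 to 217 CPM against 6.57 to 16.04 CPM (3.99), and so were Timp1 (2.88), the hyaluronan receptor gene Cd44 (1.73), the pentraxin gene Ptx3 (2.61) and the oncostatin receptor gene Osmr (2.43). Vim, Timp1 and Cd44 are also made by macrophages and fibroblasts, and the part of each cell type in these values was not tested.

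Myelin and oligodendrocyte genes were lower for all 20 tested, with a median of -6.23. Mog, myelin oligodendrocyte glycoprotein, stood at 0.246, 1.09 and 0.156 CPM in the cultures and at 627, 536 and 488 CPM in injured cortex (-10.02 ± 0.58, adjusted p = 1.41e-07 in edgeR's quasi-likelihood test; -11.35 without culture replicate 2). The link protein gene Hapln2 was at 0.173 to 0.246 CPM against 93.7 to 125 CPM (-8.99). The list summed to 1043 to 1239 CPM in the cultures and to 27320 to 34600 CPM in injured cortex. Trf, the iron carrier transferrin, which is not limited to these cells, held 41.9% to 65.8% of the culture sum. Precursor genes were lower for 14 of 15, with Olig1 at 1.597 to 2.42 CPM against 161 to 392 CPM (-7.20) and the transcription factor gene Sox8 at 0.345 to 0.783 CPM against 25.9 to 56.3 CPM (-6.35). The member not called was the proteoglycan gene Cspg4, also made by pericytes, at 35.5 to 56.0 CPM against 8.01 to 53.1 CPM (0.83, not called), which held 66.9% to 72.6% of the culture sum. The precursor sum ranged widely in injured cortex, at 1001, 463 and 2840 CPM, and the median of -5.49 was -4.55 without injured replicate 3.

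Progenitor genes were lower for 7 of 17 tested and higher for 4. Among all genes 30.1% were lower and 20.0% higher, so the share of higher members was near the background. Sox2 stood at 1.72, 1.21 and 2.19 CPM against 12.6, 12.2 and 42.8 CPM (-3.73, and -2.86 without injured replicate 3). Olig2 was at 0.518 to 0.704 CPM against 37.2 to 76.0 CPM (-6.49) and Nr2e1 at 0.0783 to 0.345 CPM against 3.93 to 11.3 CPM (-5.16, and -6.01 without culture replicate 2). Nes, the filament nestin, was at 70.8, 61.4 and 92.2 CPM in the cultures and 29.5, 15.2 and 47.8 CPM in injured cortex. Its groups did not overlap, and it narrowly missed the threshold (1.28 ± 0.51, adjusted p = 0.0544 in edgeR's quasi-likelihood test), passing it in 10 of 21 alternatives (adjusted p from 1.76e-05 to 0.0449 in these). The 4 higher genes were Dlx2, Tnc (5.01) and the BMP targets Id1 (1.74) and Id3 (1.93). Dlx2, a homeobox gene of interneuron progenitors, was at 2.58 to 3.50 CPM against at most 0.0681 CPM (5.91, and 6.53 without injured replicate 3).

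Neuronal genes were low in both groups. Of 18 tested, 4 were higher in the cultures, 5 lower and 9 not called, with 3 lower without injured replicate 1 and 8 with library totals alone. Among all genes 20.0% were higher and 30.1% lower, so the shares were near the background. The median of 0.01 had no stable sign and was -0.63 with library totals alone and -0.65 without culture replicate 2. Camk2a, a synaptic kinase, stood at 17.4, 47.8 and 38.1 CPM in the cultures and 0.755, 0.524 and 1.46 CPM in injured cortex, whose cells were sorted against neurons (5.19 ± 0.48, adjusted p = 4.93e-06 in edgeR's quasi-likelihood test). The splicing regulator Celf4 was at 9.21 to 18.0 CPM against 1.79 to 3.17 CPM (2.52) and the neurofilament gene Nefl, with 32.8% of exon bases shared with another gene, at 3.81 to 6.97 CPM against 0.681 to 1.56 CPM (2.51). Rbfox3, known as NeuN, was called (1.69, adjusted p = 0.0207) but not without culture replicate 2, culture replicate 3 or injured replicate 1 (adjusted p from 0.0636 to 0.107), nor with library totals alone (adjusted p = 0.141). Dcx, of newborn neurons, was at 0 in all 3 cultures and at 0.262 to 4.66 CPM in injured cortex. The RNA-binding gene Elavl3 was at 1.84 to 4.03 CPM against 10.3 to 46.1 CPM (-3.19, and -2.40 without injured replicate 3), and Tubb3 at 10.7 to 12.8 CPM against 33.3 to 74.97 CPM (-2.03). L1cam, which encodes CD171, overlapped at 1.90 to 6.26 CPM against 1.31 to 2.64 CPM (1.00, adjusted p = 0.10). The list summed to 53.5, 95.1 and 81.0 CPM in the cultures and to 157, 75.9 and 224 CPM in injured cortex.

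Neutrophil genes were lower for 13 of 14 tested, with a median of -6.39 (-7.17 without culture replicate 2, and -5.84 with the 1 member at 0 in the cultures set to its bound). S100a9, a calcium-binding protein of neutrophils, was at 0, 0.287 and 0 CPM in the cultures and at 217, 146 and 131 CPM in injured cortex. Its log2 fold change was -10.51, and -9.92 without culture replicate 1. Without culture replicate 2, S100a9 had no count in the remaining cultures. The size of its fitted value there (-14.65) depends on a small count added in the fit. Its partner gene S100a8 was at 15.9, 19.1 and 32.6 CPM against 104, 86.2 and 86.7 CPM (-2.04). The granule gene Ngp was at 0.0575 to 0.391 CPM against 57.9 to 153 CPM (-8.80), and the receptor gene Csf3r at 8.69 to 13.3 CPM against 104 to 202 CPM (-3.77). The single higher gene, the collagenase gene Mmp8, stood at 157, 162 and 174 CPM against 15.9, 13.8 and 6.64 CPM (3.77 ± 0.34, adjusted p = 3.50e-06 in edgeR's quasi-likelihood test) and held 79.8% to 83.6% of the list's culture sum. Monocyte genes were lower for 9 of 12, with a median of -3.88 (-3.24 without injured replicate 1). The chemokine receptor gene Ccr2 was at 2.83, 0.863 and 1.10 CPM against 202, 145 and 50 CPM (-6.36, and -7.08 without culture replicate 1). Ly6c2, a surface marker of inflammatory monocytes, was at 1.66 to 2.36 CPM against 879, 224 and 63.4 CPM (-7.64, and -6.21 without injured replicate 1). The higher gene was Fn1, which held 65.5% to 85.1% of the culture sum.

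T and NK cell genes were lower for 15 of 16 tested, with a median of -4.17 (-3.49 without injured replicate 1). Gzma was at 0 in the 3 cultures and at 38.6, 19.1 and 10.4 CPM in injured cortex, and the T cell receptor subunit gene Cd3e at 0.391 to 1.61 CPM against 20.8, 7.17 and 6.33 CPM (-3.70; -4.58 and -2.95 without culture replicate 2 and injured replicate 1). The coreceptor gene Cd4 was not called (-1.57, adjusted p = 0.0512 in edgeR's quasi-likelihood test). B cell genes were lower for 8 of 11, with a median of -6.52 (-7.63 without culture replicate 1). Ighd, the heavy chain of naive B cells, had no count in any culture, and stood at 9.91 to 12.98 CPM in injured cortex. The antigen receptor gene Cd79a was at 0 to 0.173 CPM against 12.9 to 22.04 CPM (-7.24, and -7.85 without culture replicate 2), and the kappa light chain gene Igkc at 0 to 0.0575 CPM against 53.5 to 129 CPM. The transcription factor gene Ebf1 (1.17), which mural and fat cells also use, and the lectin gene Cd22 (1.39), also found in microglia, were higher, with Ebf1 not called with library totals alone (adjusted p = 0.109). Hemoglobin and the other erythrocyte genes were lower for all 5 tested (-6.96 to -8.42), and summed to 2.80 to 6.95 CPM in the cultures and to 1187 to 2659 CPM in injured cortex.

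Endothelial genes were higher for 2 of 20 tested, lower for 6 and not called for 12, and 10 were lower with library totals alone. Among all genes 20.0% were higher and 30.1% lower, so the share of lower members was near the background. The higher members were Esam, an adhesion molecule of endothelial junctions at 168 to 205.5 CPM against 41.3 to 48.2 CPM (2.06), and the glucose transporter gene Slc2a1 at 218.5 to 229 CPM against 100.3 to 141 CPM (0.86, adjusted p = 0.0105 in edgeR's quasi-likelihood test). With library totals alone Slc2a1 was not called (0.31, adjusted p = 0.158). The anion transporter gene Slco1a4 stood at 0.173 to 0.369 CPM against 20.1 to 55.1 CPM (-7.07). The lipid transporter gene Mfsd2a was at 0.861 to 2.15 CPM against 33.6 to 58.5 CPM (-5.07) and the tight junction gene Cldn5 at 15.3 to 18.9 CPM against 60.7 to 119 CPM (-2.38). The general endothelial genes Pecam1, at 16.9, 7.99 and 5.71 CPM against 7.83, 8.01 and 15.2 CPM, and Cdh5, at 1.84 to 5.34 CPM against 1.70 to 4.63 CPM, overlapped between the groups. Pericyte genes were lower for 7 of 15 and higher for 4, against 30.1% and 20.0% of all genes. Their median was -0.92 (-1.67 without culture replicate 1). The brain pericyte genes Atp13a5, at 0, 0.0575 and 0 CPM against 39.2, 38.7 and 31.6 CPM, and Kcnj8, a potassium channel gene at 1.02 to 1.29 CPM against 26.3 to 34.4 CPM (-4.63), were near absent from the cultures, as was the plasma protein gene Vtn at 3.50 to 5.23 CPM against 280 to 361 CPM (-6.22). The 4 higher genes were Des, Anpep, Mcam and Pdgfrb, of which 2 were called with library totals alone. Des was at 136 to 192 CPM against 4.14 to 6.67 CPM (4.97) and the aminopeptidase gene Anpep at 14.2 to 39.3 CPM against 0.802 to 1.26 CPM (4.62). The growth factor receptor gene Pdgfrb was at 96.5, 49.2 and 61.7 CPM against 20.6, 19.7 and 34.4 CPM (1.47, adjusted p = 0.00485 in edgeR's quasi-likelihood test, and 0.146 with library totals alone). Mcam, an adhesion molecule, was at 113, 92.0 and 118 CPM against 34.4, 21.0 and 61.1 CPM (1.47, adjusted p = 0.00787, and 0.79 with an adjusted p of 0.2 with library totals alone).

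Of 12 ependymal and choroid plexus genes only 5 passed the filter on low counts. Of these 1 was higher and 2 lower, against 20.0% and 30.1% of all genes. The median was -1.38, and 1.25 without injured replicate 3. Folr1, a folate receptor of the choroid plexus, was higher (3.39, and 4.80 without injured replicate 3). Foxj1, the regulator of motile cilia, was lower (-3.97, and -3.18 without injured replicate 3). Without culture replicate 1 no Foxj1 count remained in the cultures, and the size of the fitted -6.91 depends on a small added count.

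**Figure D5:**
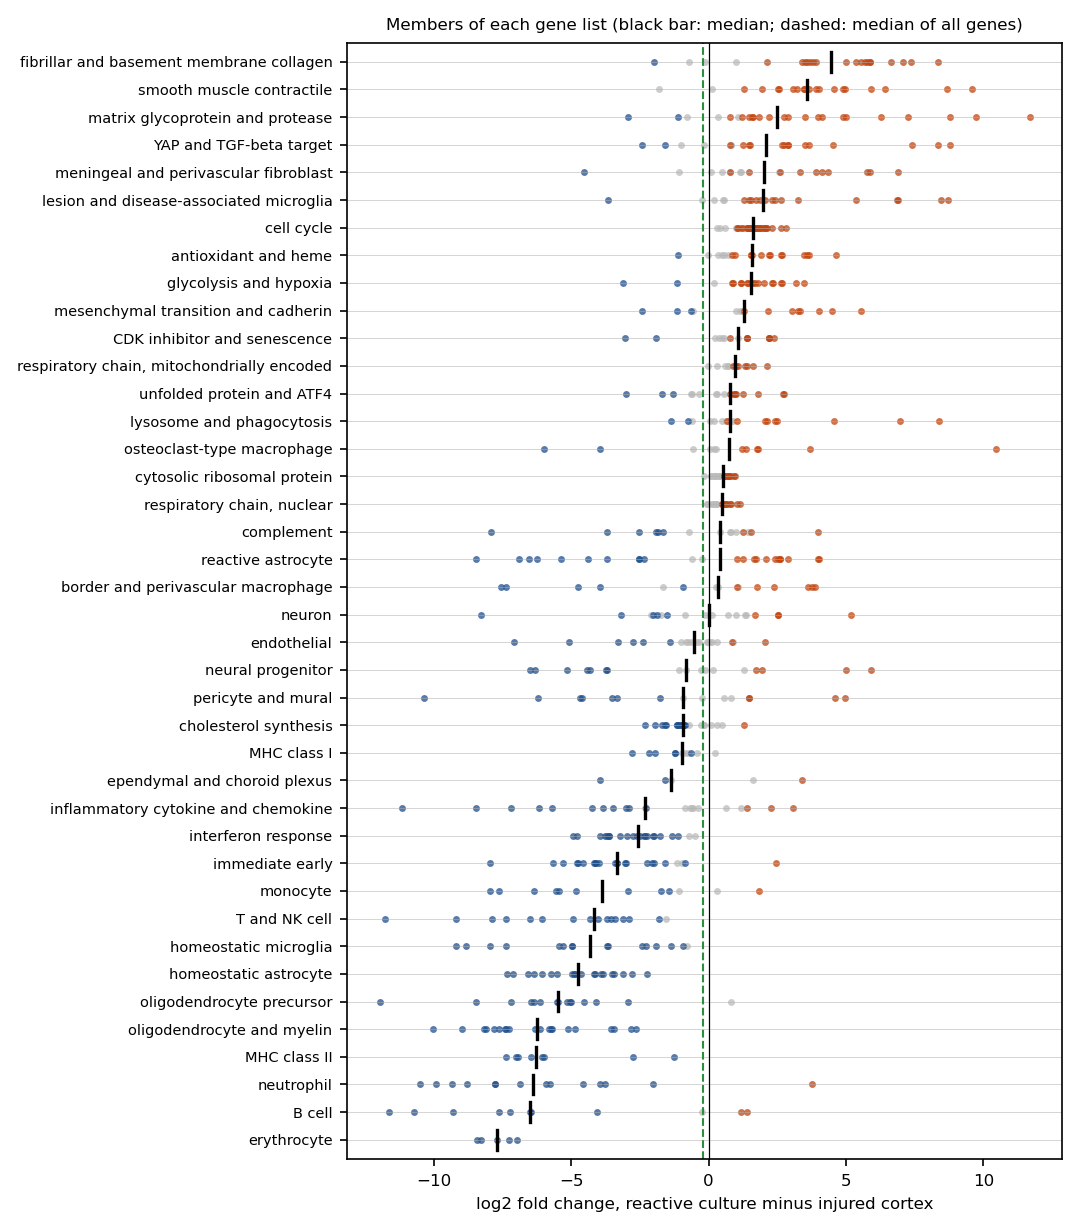
Log2 fold change of reactive culture minus injured cortex (horizontal axis) for every tested member of 40 gene lists (vertical axis, ordered by median), with members called higher in orange-red, called lower in blue and not called in grey. A black bar marks the median of each list, from 4.46 for collagens to -7.69 for erythrocyte genes, and the dashed line the median of all genes at -0.19.

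Proliferation genes were higher in the cultures for 26 of 30 tested and lower for 0, with a median of 1.62 that was 1.10 with library totals alone, where 22 were called. Mki67 stood at 43.7, 36.8 and 43.4 CPM in the cultures, 15.6, 16.6 and 19.4 CPM in injured cortex and 0.552 to 0.630 CPM in uninjured cortex. Both injured cortex and cultures therefore lay above uninjured cortex, and the cultures above injured cortex (1.26 ± 0.20, adjusted p = 2.93e-04 in edgeR's quasi-likelihood test), but with library totals alone Mki67 was not called (0.66, adjusted p = 0.0588). The largest log2 fold changes of the list were those of the cyclin E genes Ccne2 (2.82) and Ccne1 (2.63). Ccne1 was at 52.5 to 62.0 CPM against 6.16 to 11.8 CPM. Rrm2, a subunit of the enzyme that makes DNA precursors, was at 211 to 290 CPM against 41.1 to 58.5 CPM (2.30). The mitotic kinase gene Cdk1 was at 169 to 193 CPM against 27.9 to 55.3 CPM (2.06) and the helicase gene Mcm6 at 161 to 207 CPM against 36.3 to 59.6 CPM (1.93). Among brakes on the cycle and senescence genes, 8 of 15 were higher and 2 lower, with 5 higher without culture replicate 2 and 4 with library totals alone. The p53 regulator gene Mdm2 (2.20) and the stress cytokine gene Gdf15 (2.37) were higher, Cdkn1a, or p21, was not called (460 to 539 CPM against 159 to 454 CPM), and Cdkn2a did not pass the filter, at no more than 0.157 CPM in any culture or injured library. Lmnb1, a lamin lost in senescent cells, was at 2.36 to 5.40 CPM against 53.3, 29.1 and 9.39 CPM (-3.03, and -2.37 without injured replicate 1). In uninjured cortex Lmnb1 was at 0.549 to 1.93 CPM, so every culture lay above every uninjured library. The brake gene Cdkn1b was also lower than in injured cortex (-1.93, and -2.74 without culture replicate 1).

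Immediate early genes, which respond within minutes to stimuli and also to tissue dissociation, were lower for 20 of 23 tested and higher for 1, with a median of -3.35. Fosb stood at 0.307, 0.173 and 0.391 CPM in the cultures and 50.7, 54.6 and 108 CPM in injured cortex, with 44.2 to 81.1 CPM in uninjured cortex (-7.95 ± 0.49, adjusted p = 1.91e-07 in edgeR's quasi-likelihood test). Nr4a1, a nuclear receptor, was at 4.70 to 6.88 CPM against 244 to 290 CPM (-5.65). The transcription factor gene Egr1 was at 40.9 to 68.1 CPM against 1161 to 1732 CPM (-4.78) and Fos at 97.1 to 111 CPM against 1664 to 3549 CPM (-4.74). Immediate early genes summed to 1496 to 1581 CPM in the cultures, 14270 to 18590 CPM in injured cortex and 6145 to 20000 CPM in uninjured cortex, both of which were dissociated and sorted. The effect of dissociation and sorting was not tested. Fosl1, the AP-1 subunit FRA1, was the single higher gene at 6.57 to 9.49 CPM against 0.511 to 1.99 CPM (2.45, adjusted p = 0.0346), with 57.2% of its exon bases shared with another gene. Its call was lost without any 1 of the 3 cultures, injured replicate 1 or injured replicate 3 (adjusted p from 0.0558 to 0.0949) and with library totals alone (adjusted p = 0.0972).

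Inflammatory cytokines and chemokines were lower for 11 of 22 tested and higher for 3, with a median of -2.31. Il1b, the principal secreted form of interleukin-1, stood at 0.307, 0.575 and 1.02 CPM in the cultures and at 2437, 1157 and 725 CPM in injured cortex, with 18.1 to 113 CPM in uninjured cortex. The cultures were below every cortex library (-11.18 ± 0.92, adjusted p = 1.79e-06 in edgeR's quasi-likelihood test; -10.57 without injured replicate 1). Cxcl10 was at 0.920 to 1.29 CPM against 148 to 648 CPM (-8.49, and -7.87 without injured replicate 1). Tumour necrosis factor gene Tnf was at 7.99 to 13.6 CPM against 271 to 727 CPM (-5.70), and the chemokine gene Ccl12 at 18.5 to 45.5 CPM against 436 to 788 CPM (-4.26). Il18, a relative of interleukin-1, was at 10.1 to 11.8 CPM against 83.6 to 97.5 CPM (-3.02). The monocyte attractant gene Ccl2 (369 to 495 CPM against 478 to 1125 CPM) and Il6 (2.19 to 3.13 CPM against 2.88 to 4.81 CPM) were not called. The 3 higher genes were Il1rn, the natural antagonist of interleukin-1, at 459, 595 and 1373 CPM against 162, 102 and 22.5 CPM (3.08 ± 0.69, adjusted p = 0.0031 in edgeR's quasi-likelihood test), Csf1 and Ptgs2. The macrophage growth factor gene Csf1 was at 162 to 240 CPM against 65.7 to 94.0 CPM (1.39) and the prostaglandin synthase gene Ptgs2 at 101 to 144 CPM against 14.6 to 33.2 CPM (2.26). Il1rn was at 2.47 without culture replicate 3 and at 3.69 without injured replicate 1. The agonist Il1b was thus lower and the antagonist Il1rn higher in the cultures. Il1r2, the gene of a decoy receptor for interleukin-1, is among the lower genes of the neutrophil list, with 61.0 to 524.5 CPM in injured cortex. The balance of the interleukin-1 system was not tested.

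Interferon-stimulated genes, which antiviral type I interferon switches on, were lower for 20 of 22 tested and higher for 0, with a median of -2.56 (-1.74 without injured replicate 1). Isg15, a ubiquitin-like modifier, stood at 6.57, 8.80 and 9.70 CPM in the cultures and 233, 68.5 and 39.7 CPM in injured cortex, with 4.23 to 7.46 CPM in uninjured cortex. Ifit3, which binds viral RNA, was at 3.87, 10.2 and 10.7 CPM against 508, 158 and 89.6 CPM, and the GTPase gene Mx1 at 0.246 to 1.15 CPM against 42.8, 15.7 and 9.22 CPM. The groups did not overlap, and injured replicate 1 was the highest each time: the log2 fold changes were -3.77, -4.93 and -4.81, and -2.70, -3.91 and -3.95 without that library. Their summed level was 266, 412 and 494 CPM in the cultures and 4640, 1685 and 1136 CPM in injured cortex. Reads of Ifit3 may be shared with its near-identical neighbour Ifit3b.

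The interferon-stimulated response element, searched by its letters on both strands, lay in 10 of the 15 promoters of this list in the table (66.7%) and in 3.99% of all 27025. As the list was chosen for its response to interferon, this share does not bear on cultures against injured cortex. Isg15 (chr4:156200769-156201068, minus strand, matches beginning 78, 72 and 66 bases before the start) and Ifit3 (chr19:34583279-34583578, plus strand, 156 and 122 bases before the start) are printed as examples, picked after the matches were seen, with the matches in capitals.
Isg15: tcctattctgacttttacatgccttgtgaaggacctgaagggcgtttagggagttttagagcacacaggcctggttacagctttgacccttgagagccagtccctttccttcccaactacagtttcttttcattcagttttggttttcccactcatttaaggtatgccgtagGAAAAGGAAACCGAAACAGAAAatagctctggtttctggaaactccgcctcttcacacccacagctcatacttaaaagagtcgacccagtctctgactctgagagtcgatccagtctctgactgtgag
Ifit3: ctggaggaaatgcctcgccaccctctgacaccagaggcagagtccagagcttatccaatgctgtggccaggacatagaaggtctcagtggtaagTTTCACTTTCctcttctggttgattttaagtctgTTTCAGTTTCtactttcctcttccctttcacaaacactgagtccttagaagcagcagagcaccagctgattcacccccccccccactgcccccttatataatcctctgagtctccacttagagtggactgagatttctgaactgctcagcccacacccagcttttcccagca

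MHC class II genes, which present antigen to helper T cells, were lower for all 8 tested, with a median of -6.27. Cd74, the invariant chain, stood at 20.9, 25.9 and 40.0 CPM in the cultures and at 5512, 3542 and 1569 CPM in injured cortex, where uninjured cortex had 230 to 287 CPM (-6.94 ± 0.53, adjusted p = 1.04e-06 in edgeR's quasi-likelihood test). H2-Aa was at 5.53 to 15.3 CPM against 522 to 2120 CPM (-7.01) and H2-Eb1 at 2.95 to 7.75 CPM against 470 to 1430 CPM (-7.39). Ciita, the transactivator of the whole family, was at 0.123 to 0.235 CPM against 6.23 to 19.2 CPM (-6.06). H2-DMb1, of the loading complex, differed least (-1.26) and overlapped between groups. Class I genes, made by nearly all cells, were lower for 6 of 11 and higher for 0, with a median of -0.96. The count was 3 without culture replicate 2 or injured replicate 1, and 10 without injured replicate 3 or with library totals alone. The median was -0.45 without injured replicate 1. The lower genes included the immunoproteasome gene Psmb9 (-2.17) and the peptide transporter gene Tap1 (-1.94). H2-K1 overlapped between groups at 425, 510 and 587 CPM against 1760, 1240 and 586 CPM (-1.24, adjusted p = 0.0143), and lost its call without culture replicate 1, culture replicate 2 or injured replicate 1 (adjusted p from 0.051 to 0.0775).

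Complement genes were lower for 6 of 15 tested and higher for 3, with a median of 0.41 that was -0.10 with library totals alone. Among all genes 30.1% were lower and 20.0% higher, so the shares were near the background. The higher members numbered 5 without injured replicate 2, and also with DESeq2, its size factors in edgeR, limma-voom or no filter. The classical pathway starter C1qa stood at 449, 448 and 270 CPM in the cultures and 2073, 2974 and 1768 CPM in injured cortex (-2.55), and C4b at 0.235 to 0.518 CPM against 59.3 to 129 CPM (-7.92). Higher genes were Serping1 (3.99), the receptor subunit gene Itgax (38.8 to 53.2 CPM against 14.1 to 19.2 CPM, 1.55) and properdin, from Cfp (1.27, adjusted p = 0.0235 in edgeR's quasi-likelihood test). Cfp was not called without culture replicate 2 (adjusted p = 0.0893) or with library totals alone (adjusted p = 0.0849).

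Energy metabolism genes differed by pathway. Glycolysis and hypoxia genes were higher for 17 of 21 tested and lower for 2, with a median of 1.55. Ldha, which turns pyruvate into lactate, stood at 4561, 4429 and 4155 CPM against 934, 795 and 411 CPM (2.62 ± 0.35, adjusted p = 8.56e-05 in edgeR's quasi-likelihood test). The hexokinase gene Hk1 was at 89.8 to 115 CPM against 27.3 to 38.7 CPM (log2 fold change 1.6), and the oxygen sensor gene Egln3 at 25.98 to 34.3 CPM against 3.10 to 4.01 CPM (3.20). Hk2 (-1.13) and Ndrg1 (-3.12), the latter also a gene of myelinating cells at 19.03 to 22.97 CPM against 150 to 205 CPM, were lower. Cholesterol synthesis genes were lower for 13 of 21, with Fdft1 at 30.8 to 34.0 CPM against 119 to 144 CPM (-1.95) and Hmgcs1 at 30.8 to 43.9 CPM against 97.4 to 134 CPM (-1.69). The only higher member was Apoe, a carrier of cholesterol and not an enzyme of its synthesis, at 10730 to 11540 CPM against 4045 to 5203 CPM (1.28). Nuclear genes of the respiratory chain were higher for 9 of 22 with a median of 0.50, and cytosolic ribosomal protein genes for 10 of 22 with a median of 0.53, none being lower in either list. With library totals alone these medians were -0.07 and -0.03, and 1 and 0 of the genes were called higher. Leaving out 1 library also moved these counts. Of the nuclear respiratory genes 2 and 3 were called higher without culture replicates 2 and 3, and 4 and 5 without injured replicates 1 and 3. Of the ribosomal genes 5, 2 and 4 were called higher without culture replicates 1, 2 and 3, and 6 without injured replicate 2. Mitochondrially encoded genes were higher for 8 of 13 with a median of 0.96, for 4 with library totals alone, and for 3 and 5 without culture replicates 2 and 3. Ribosomal genes have many near-identical pseudogenes, so single members are uncertain.

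Antioxidant and heme-handling genes, many of them targets of the factor NRF2, were higher for 14 of 20 tested and lower for 1, with a median of 1.57. Hmox1, which breaks down heme, stood at 3507, 2656 and 2189 CPM in the cultures, 292, 249 and 151 CPM in injured cortex and 8.17 to 36.1 CPM in uninjured cortex (3.59 ± 0.51, adjusted p = 1.24e-04 in edgeR's quasi-likelihood test). Nqo1, a quinone reductase, was at 86.4 to 123 CPM against 4.11 to 4.45 CPM (4.65). The peroxidase gene Prdx1 was at 16630 to 17720 CPM against 1154 to 1502 CPM (3.65), and Gclm, of glutathione synthesis, at 669 to 754 CPM against 59.6 to 75.4 CPM (3.46). In each of these genes the cultures lay above every injured library. Prdx6, a peroxidase abundant in astrocytes, was lower at 456 to 483 CPM against 918 to 1126 CPM (-1.10). Genes of the unfolded protein response and of ATF4 were higher for 8 of 20 and lower for 3. The higher count was 5 without culture replicate 1 or injured replicate 1 and 3 with library totals alone, and the lower count was 6 without injured replicate 3 or with library totals alone. The amino acid response genes Asns (109 to 121 CPM against 12.5 to 21.2 CPM, 2.73) and Trib3 (2.70) were higher, whereas Phgdh and Psat1, of serine synthesis, were lower (-1.69 and -1.31), as was Herpud1 of the endoplasmic reticulum (-2.99, and -2.38 without injured replicate 2). Atf4 itself and the chaperone gene Hspa5 were not called (-0.63 and 0.29).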

How the data were processed

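RNA was measured by polyA RNA sequencing in 9 libraries, 3 a group. The values are raw read counts per gene as deposited by the authors. Alignment to GRCm39 with HISAT2 is named in the submitters' processing notes, while for the counting tool, strand setting and annotation nothing is stated: they were not given in the sources used here. Samples were grouped by their labels. Genes were kept by edgeR's filterByExpr defaults, scaled by TMM factors and fitted with edgeR 4.0.16 (R 4.3.3) in a quasi-likelihood model of group means over all 9 libraries, with 6 residual degrees of freedom. Calls required a Benjamini-Hochberg adjusted p under 0.05 for culture minus injured cortex. Errors of log2 fold changes are standard errors from the fit, and glmTreat tested for more than 2-fold. Scripts were tested on simulated counts of 16965 genes, with 100 genes changed 2-fold and 100 changed 4-fold. The fit called 7% of the 2-fold and 72% of the 4-fold changes, and 3.66% of its calls were false. Far more genes were called in the real data, so these shares need not hold there. A gene not called may still differ. Alternatives used limma 3.58.1, DESeq2 1.42.0, other scalings and filters, other sets of libraries and the replicate number as a block.

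The comparison, its gene lists and the rule for named genes were chosen with earlier results of these data known, and no list is independent support for a direction. Named were the 10 genes furthest up and the 10 furthest down among calls without overlap that averaged 10 CPM or more, a panel of 41 genes, up to 4 members a list with the smallest adjusted p, members called against their list's majority, and up to 6 genes a direction with no count in one group. Other members named in the text were chosen after their values were seen. Some genes are in several lists, Spp1, Col1a1, Ccn1, Ccn2, Des and Fn1 among them. Folr2, Rarres2 and H2-Oa share exon bases with other genes, and hemoglobin and immunoglobulin genes have near-identical copies, so their single values are uncertain. Smaller shares of exon bases overlap other genes for Spp1 (18.8%), Fdft1 (18.3%), Htr1b (18.0%), Aldh1l1 (13.4%) and Hmgcs1 (12.1%), among others. Promoters came from RefSeq (GRCm38.p6); no coordinates were taken across builds. Some members of the lists are counted but not reported by name here.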

Additional observations from a re-analysis of the deposited data

How the results depend on the processing

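Over 21 alternatives the count of called genes (9057) stayed within 1.5 times, except against a 2-fold threshold, where glmTreat called 4626 genes, 1264 higher and 3362 lower. With library totals alone, an alternative chosen after seeing the data, 1649 genes were called higher. Leaving out 1 library gave 7152 to 9330 calls, 2700 to 3666 of them higher and 4452 to 5664 lower. DESeq2 called 9672 genes and limma-voom 8855. No source used here says that replicate numbers pair the samples. Deviations from the group means had r of -0.0432, 0.146 and 0.0855 between same-numbered libraries. Between differently numbered ones r was -0.173 to 0.0827. With 3 libraries a group these values cannot decide whether samples were paired. The replicate block gave 9096 calls, 3755 higher and 5341 lower.

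With library totals alone the median log2 fold change reversed for the reactive astrocyte (-0.203), neuron (-0.629), border macrophage (-0.237), complement (-0.0986), ribosomal (-0.0332) and nuclear respiratory (-0.0725) lists. The neuron median also reversed with upper-quartile factors (-0.0605), without the 100 most abundant genes in the library sizes (-0.00338), with no filter (-0.0101), with a filter at 1 CPM (-0.0212), with limma-voom (-0.28), with the replicate block (-0.154), and without culture replicate 2 (-0.654) or injured replicate 2 (-0.142), and leaving out 1 library moved it between -0.654 and 0.5883. The ependymal median reversed with a filter at 1 CPM (1.59), with the 6 libraries alone (1.54) and without injured replicate 3 (1.25), with a leave-one-out range of -1.55 to 1.25. In these 3, and for neurons with a filter at 1 CPM, fewer genes of the list were tested. The cause of the other reversals was not tested. Over named genes and alternatives together, 88 values lost their call and 10, all of Nes, gained one, with a gene counted once for each alternative. Many of the losses were against the 2-fold threshold of glmTreat, which asks a stricter question, or with library totals alone. With 3 libraries a group, genes near the threshold, such as Fosl1 and Rbfox3, depend on single libraries.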
